A study of Mus musculus with 14 samples.

Results

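Among 12 mouse osteosarcomas profiled on expression arrays, 5 had an Acan signal of at least 160 array units (Acan-high) and 7 had a lower one (Acan-low). The groups were chosen by the Acan signal itself, so Acan is described and not tested, and the question put to every other gene was whether cartilage genes went with it. The series holds 14 arrays in all. Both osteosarcoma groups arose in p53+/- mice, which carry 1 functional copy of the tumour suppressor gene p53, and the labels give no treatment, age, strain or tumour site for either. The other 2 arrays are a tumour labelled rhabdomyosarcoma, a cancer of the skeletal muscle lineage, from the same kind of mouse, and mc3T3, a cultured osteoblast line used by the study as its control. The labels do not say whether the 12 tumours came from separate animals, so p-values measure the spread between these samples, which may in part be technical.

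Acan encodes aggrecan, the large proteoglycan that holds water in cartilage. Its core protein carries many chondroitin sulfate chains and binds hyaluronan, a binding stabilised by the link protein Hapln1. In cartilage, the transcription factor Sox9, with Sox5 and Sox6, turns on Acan together with the cartilage collagens Col2a1, Col9a1 and Col11a2. Osteosarcomas are bone-forming tumours, some of which contain areas of cartilage matrix. In RNA from whole tumours, fewer cells of a type and less RNA per cell cannot be told apart.

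Acan was measured by 1 probe set. Its signal was 202 in osteosarcoma 1, 221 in osteosarcoma 2, 314 in osteosarcoma 5, 412 in osteosarcoma 9 and 307 in osteosarcoma 11, the Acan-high tumours. In the Acan-low tumours the lowest signal was 42.2 in osteosarcoma 7, the median 94.5 and the highest 121 in osteosarcoma 6. The tumours nearest the threshold were osteosarcoma 1 at 202 and osteosarcoma 6 at 121. The means were 292 ± 84.1 in Acan-high tumours and 89.5 ± 28.6 in Acan-low tumours (SD, n = 5 and 7), a gap of 1.43 on the log2(signal + 30) scale. These are low to middling signals for the array: the percentile rank of Acan among all probe sets of its array was 62.6 to 71.1 in Acan-high tumours, against 35.6 to 57.7 in Acan-low tumours. The tumour labelled rhabdomyosarcoma had a signal of 80.5, within the Acan-low range, and mc3T3 had 4.10. When all arrays were forced to 1 distribution by quantile normalization, the same 5 tumours stayed on top, at 188 to 354 against 42.9 to 134.

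**Figure D1:**
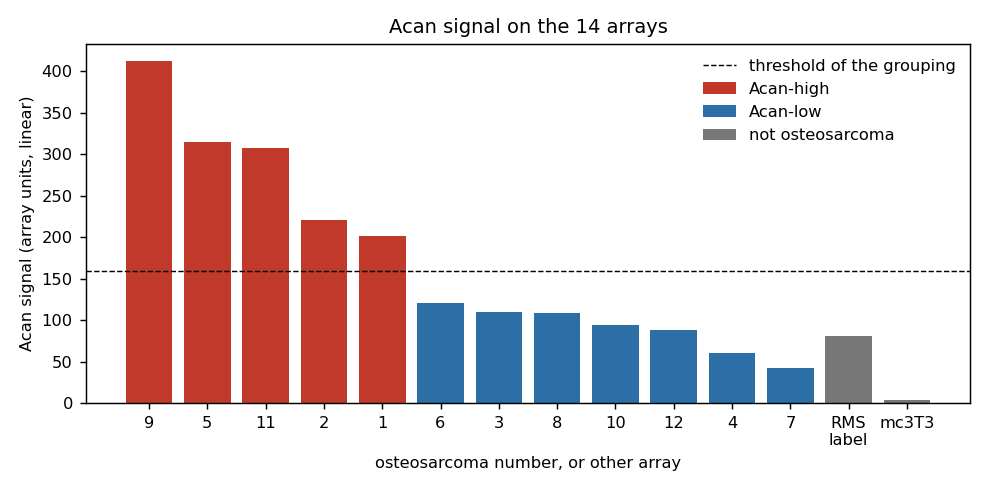
Bars show the Acan signal (linear array units) on each of the 14 arrays, Acan-high osteosarcomas in red, Acan-low in blue, the tumour labelled rhabdomyosarcoma (RMS label) and mc3T3 in grey; the dashed line is the threshold of 160. The 5 Acan-high tumours span 202 to 412 and the 7 Acan-low tumours 42.2 to 121, with the gap at the threshold between osteosarcoma 1 and osteosarcoma 6.

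Some properties of the arrays moved with the grouping. For beta-actin, the 3' probe signal over the 5' one, a ratio that climbs as RNA degrades, was 1.42 to 1.62 in Acan-high tumours and 1.44 to 2.13 in Acan-low tumours. The median signal of an array was 70.3 to 111.1 in Acan-high tumours and 67.1 to 91.4 in Acan-low tumours. The tumour identifiers begin with the letter c, m or o, whose meaning the labels do not give: 3 Acan-high and 1 Acan-low tumours had c, 2 and 4 had m, and 0 and 2 had o. Osteosarcomas 9 (Acan-high) and 6 (Acan-low) stood apart in skeletal muscle genes, and counts without this pair are given for the cartilage matrix, chondrogenic regulator, osteoclast and hypoxia lists.

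No gene differed between the groups after adjustment. Of 11814 genes tested with limma, 0 had a Benjamini-Hochberg adjusted p under 0.05 in either direction (0.0%), and the lowest adjusted p was 0.343. At an unadjusted p under 0.05, 591 genes were higher in Acan-high tumours (5.00% of those tested) and 531 were lower (4.49%). Acan-high and Acan-low tumours did not overlap in 37 genes that were higher (0.313%) and in 30 that were lower (0.254%). The median difference over all genes was -0.00 on the log2(signal + 30) scale. A fit on all 22478 probe sets also gave 0 adjusted calls, with 1213 higher and 773 lower at an unadjusted p under 0.05. The counts at an unadjusted p under 0.05 are the background against which each list is read, and a p that misses the threshold does not show that the groups were alike. All differences given are Acan-high minus Acan-low on the log2(signal + 30) scale with their standard error, and per-tumour signals of Acan-high tumours follow the order osteosarcomas 1, 2, 5, 9 and 11.

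The cartilage matrix genes were split between higher and lower means in the Acan-high tumours. Of 23 listed genes, 14 were tested, having reached a signal of 200 on at least 1 array; 7 had a difference above 0 and 7 below, and their median was -0.06, beside -0.00 over all genes. At an unadjusted p under 0.05, 0 were higher and 1 was lower, beside 5.00% and 4.49% of all genes. That 1 was Col2a1, which encodes the main collagen of cartilage. Its signal was 184, 839, 70.5, 2328 and 287 in the Acan-high tumours, against a lowest of 281, a median of 3487 and a highest of 14732 in the Acan-low tumours. All 5 Acan-high tumours lay under the Acan-low median, and 6 of 7 Acan-low tumours lay above the Acan-high median, but the groups overlapped through osteosarcoma 3 at 281 and osteosarcoma 7 at 625. The difference was -2.66 ± 0.96, with an unadjusted p of 0.015 and an adjusted p of 0.443, so it was not called. It shrank to -1.13 ± 0.73 with the beta-actin ratio as a covariate (unadjusted p = 0.150) and to -1.40 ± 1.12 when osteosarcoma 6 was moved to the high side, and was -2.87 ± 0.87 without osteosarcomas 6 and 9. Without that pair the list had a median of 0.06, with 1 gene higher and 1 lower at an unadjusted p under 0.05.

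The sign of the list's median turned with the tumours included. Without osteosarcoma 6 alone it was 0.24, with 9 of 14 genes above 0, 1 higher and 1 lower. With osteosarcoma 6 moved to the high side it was 0.38, with 10 of 14 above 0, 3 higher and 0 lower. In a fit of the slope on the Acan level it was 0.16, with 9 of 14 above 0 and 0 higher or lower, and with the beta-actin ratio as a covariate it was 0.21, with 10 of 14 above 0, 1 higher and 0 lower.

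**Figure D2:**
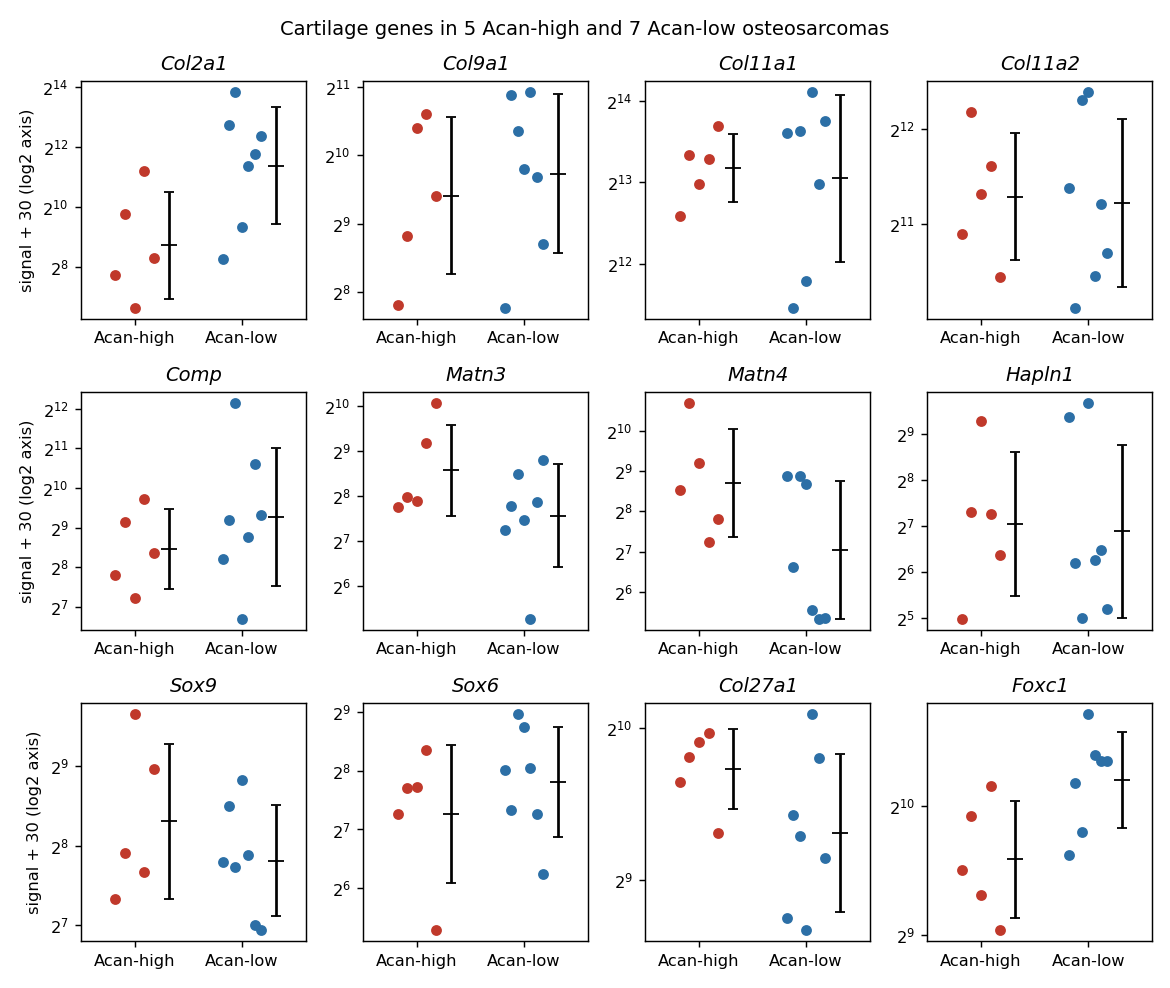
Each point is 1 tumour's signal + 30 on a log2 axis for 12 cartilage genes, Acan-high (red) left of Acan-low (blue), with horizontal bars at the group mean of the log2 values and vertical bars of 1 SD (n = 5 and 7). Col2a1 lies lower in most Acan-high tumours, Matn3 and Matn4 lie higher on average, and the groups overlap in all 12 panels.

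The other fibrillar and fibril-associated cartilage collagens showed small differences. Col9a1, which encodes a chain of the collagen on the surface of cartilage fibrils, had 195, 423, 1314, 1517 and 645 in the Acan-high tumours, against 188 to 1910 with a median of 860 in the Acan-low tumours. Col11a1, which encodes a chain of a minor fibril collagen also made in bone, averaged 9518 ± 2661 and 10096 ± 5509 (SD, n = 5 and 7), and Col11a2 averaged 2688 ± 1253 and 2770 ± 1723 in Acan-high and Acan-low tumours. For these 3 genes the groups overlapped, the Acan-high range of Col11a1 (6088 to 13198) lying inside the Acan-low one (2783 to 17606), with differences of -0.32 ± 0.59, 0.13 ± 0.44 and 0.07 ± 0.42. Col27a1, another fibrillar collagen of cartilage, was above the Acan-low median in all 5 Acan-high tumours, at 771, 869, 931, 973 and 605, against 376 to 1062 with a median of 596 (difference 0.42 ± 0.25, unadjusted p = 0.117).

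The matrilins, adaptor proteins that link collagen fibrils to proteoglycans, had the highest differences of the list. Matn4 had 338, 1613, 559, 121 and 194 in Acan-high tumours, against 10.6 to 439 with a median of 69.0 in Acan-low tumours (difference 1.65 ± 0.80, unadjusted p = 0.058, adjusted p = 0.537). All 5 Acan-high tumours exceeded the Acan-low median, yet only osteosarcomas 2 and 5 exceeded the Acan-low maximum. Matn3 had 186, 223, 207, 549 and 1046, against 8.60 to 415 with a median of 189 (difference 1.01 ± 0.56, unadjusted p = 0.095, adjusted p = 0.604). Osteosarcomas 9 and 11 alone lay above the Acan-low tumours for Matn3 on the probe set used. On its other probe set only osteosarcoma 11 did, at 793. There osteosarcoma 9 was at 287 and osteosarcoma 12, an Acan-low tumour, at 423.

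Hapln1, which encodes the link protein, had 1.5, 127, 599, 123 and 52.9 in Acan-high tumours, against 2.20 to 791 with a median of 47.1 in Acan-low tumours, a difference of 0.16 ± 0.90. Its highest signal stood in osteosarcoma 7, the tumour with the lowest Acan, on all of its probe sets but 1. On that 1 osteosarcoma 5, an Acan-high tumour, had 423 and osteosarcoma 7 had 315. On another these tumours were nearly level, at 286 and 289. Comp, a pentameric matrix protein of cartilage and tendon, had 194, 539, 119, 815 and 301, against 74.0 to 4489 with a median of 557 (difference -0.82 ± 0.76). Osteosarcoma 6, an Acan-low tumour, held the highest signal of Comp, and also of Col2a1, Chad, Prg4, Cytl1 and Cilp among the 12 tumours. Averaged over the 14 tested genes, its cartilage level on the log2(signal + 30) scale was 10.16, against 8.36 to 8.73 in the other Acan-low tumours and 8.09 to 9.22 in the Acan-high tumours. Of the 14, Chad and Cytl1 passed the filter through osteosarcoma 6 alone. Osteosarcoma 6 also had the highest skeletal muscle, neutrophil, erythroid, adipocyte and tendon list levels of the 12 tumours. It was not highest in the macrophage, endothelial or osteoclast lists.

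The other tested cartilage genes differed by less than 1. Prg4, the joint lubricant lubricin, had a difference of 0.69 ± 0.74, Snorc, a small cartilage proteoglycan, -0.53 ± 0.35, and Chad, Cytl1 and Cilp had differences of -0.19, -0.26 and -0.26. Snorc, Chad and Cytl1 each passed the filter through 1 Acan-low tumour alone. The remaining 9 listed genes did not reach a signal of 200 on any array and were not tested. They were Col9a2 and Col9a3, the partner chains of Col9a1, Matn1, Cnmd, Epyc, Ucma, Mia, Cilp2 and Scrg1. Their highest signal in any osteosarcoma was between 33.2 (Matn1) and 135 (Ucma). No detection calls were used, so such signals could not be told from background.

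Sox9, the lineage-defining factor of chondrocytes, had 131, 211, 777, 174 and 468 in Acan-high tumours, against 92.9 to 426 with a median of 193 in Acan-low tumours. Only osteosarcomas 5 and 11 lay above the Acan-low maximum, and the difference was 0.49 ± 0.43 (unadjusted p = 0.271). Its partner Sox6 had 124, 178, 182, 296 and 8.90, against 45.8 to 471 with a median of 227 (difference -0.54 ± 0.54). Sox5 was dim, at 44.6 or less in every osteosarcoma on the probe set used and at up to 117 on its other probe sets. It passed the filter only through mc3T3 (298) and the tumour labelled rhabdomyosarcoma (270). mc3T3, whose Acan signal was 4.10, had a Sox9 signal of 3183, and the tumour labelled rhabdomyosarcoma had 1214.

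Of 15 listed chondrogenic regulators, 11 were tested, with 4 differences above 0, 7 below and a median of -0.07. The dim Sox5 was among the 4. At an unadjusted p under 0.05, 0 of the 11 were higher and 1 lower, beside 5.00% and 4.49% of all genes. The lower one was Foxc1, a forkhead factor required for normal skeletal development, which had 696, 941, 604, 1112 and 496 in Acan-high tumours, against 757 to 1646 with a median of 1275 in Acan-low tumours. All 7 Acan-low tumours exceeded the Acan-high median and none of the Acan-high tumours reached the Acan-low median. The difference was -0.62 ± 0.24 (unadjusted p = 0.022, adjusted p = 0.462). Fgfr3, the receptor that restrains growth plate chondrocytes, averaged 1356 ± 507 and 1445 ± 852 in Acan-high and Acan-low tumours, a difference of -0.01 ± 0.40. Without osteosarcomas 6 and 9 the list gave 0 higher and 2 lower. The listed regulators below the filter were Nkx3-2, Bmpr1b, Gdf5 and Foxa2.

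Genes of the growth plate, where cartilage cells enlarge and are replaced by bone, had a median of -0.21 among 8 tested. At an unadjusted p under 0.05, 1 was higher and 0 lower, beside 5.00% and 4.49% of all genes. Col10a1, the collagen that defines hypertrophic cartilage, reached at most 44.2 in any osteosarcoma, and Ihh, the hedgehog ligand of the growth plate, at most 103; both were below the filter, as was the hedgehog target Gli1. Mmp13, a collagenase of hypertrophic cartilage and of osteoblasts, was at 28379 to 45100 in Acan-high tumours and 24035 to 44011 in Acan-low tumours, a difference of 0.00 ± 0.20. The parathyroid hormone receptor Pth1r and the channel Panx3, both shared by prehypertrophic cartilage and osteoblasts, differed by -0.66 ± 0.32 and -0.71 ± 0.46. No Acan-high tumour exceeded the Acan-low median of either gene, though osteosarcoma 9 was level with that of Pth1r (7977). The 1 gene that was higher at an unadjusted p under 0.05 was Alpl, the mineralizing alkaline phosphatase. It had 10484, 11527, 10569, 9675 and 9840 in Acan-high tumours, against 5833 to 10137 with a median of 8375 in Acan-low tumours (difference 0.41 ± 0.18, unadjusted p = 0.036, adjusted p = 0.492).

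Aggrecan's relatives and the hyaluronan genes gave 2 higher and 1 lower of 12 tested, beside 5.00% and 4.49% of all genes. Their median was 0.23. Fbln2, which encodes fibulin-2, a matrix protein that binds aggrecan and versican, had 8415, 1408, 5933, 567 and 725 in Acan-high tumours, against 68.5 to 997 with a median of 497 in Acan-low tumours. All 5 Acan-high tumours were above the Acan-low median, and osteosarcomas 9 and 11 lay within the Acan-low range. The difference was 2.42 ± 0.73, with an unadjusted p of 0.0051 and an adjusted p of 0.414. Vcan, which encodes versican, the aggrecan relative of loose connective tissue, had 1097, 383, 2212, 975 and 1924, against 55.7 to 1112 with a median of 487 (difference 1.38 ± 0.58, unadjusted p = 0.033). Osteosarcoma 2 lay under the Acan-low median and the rest of the Acan-high tumours above it. The tumour labelled rhabdomyosarcoma had 11896 for Fbln2, above all osteosarcomas.

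Bcan, which encodes brevican, the aggrecan relative best known from brain, averaged 2430 ± 803 and 1722 ± 1423 in Acan-high and Acan-low tumours (difference 0.97 ± 0.61). Has2, a hyaluronan synthase, was at 809, 64.9, 368, 43.4 and 780, so that osteosarcomas 1, 5 and 11 lay above all Acan-low tumours (27.7 to 332) while osteosarcomas 2 and 9 lay under the Acan-low median of 94.4. Hyal2, a hyaluronan-degrading enzyme, was the 1 lower gene, at 419 to 631 against 507 to 908 (difference -0.44 ± 0.19, unadjusted p = 0.040, adjusted p = 0.498).

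Proteases that cut aggrecan, and their inhibitors, gave 0 higher and 1 lower of 16 tested, beside 5.00% and 4.49% of all genes. The median of this list was 0.11. The aggrecanase Adamts4 was above the Acan-low median in all 5 Acan-high tumours, at 2838, 1402, 1444, 1561 and 2633, against 505 to 2129 with a median of 1209 (difference 0.76 ± 0.37, unadjusted p = 0.058). The aggrecanase Adamts5 had the opposite sign, at 644 to 1100 in Acan-high tumours and 653 to 1964 in Acan-low tumours (difference -0.35 ± 0.27). The lower gene was Mmp9, a gelatinase made by osteoclasts, with -0.47 ± 0.21 (unadjusted p = 0.040).

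The enzymes that build chondroitin sulfate, the sugar chain of aggrecan, gave 4 higher and 0 lower of 26 tested, beside 5.00% and 4.49% of all genes. Their median was 0.09, with 16 differences above 0 and 10 below. Chpf, a polymerizing factor, had 1164, 1811, 879, 787 and 644 in Acan-high tumours, against 184 to 873 with a median of 480 in Acan-low tumours (difference 1.04 ± 0.35, unadjusted p = 0.011, adjusted p = 0.443). All 5 Acan-high tumours were above the Acan-low median, and 3 of them were above every Acan-low tumour. The others were its relative Chpf2 (0.73 ± 0.28), the 4-O-sulfotransferase Chst12 (0.91 ± 0.42) and Slc35d1, a nucleotide-sugar transporter needed for cartilage chondroitin sulfate (0.38 ± 0.14). Slc35d1 had a narrow range, 299 to 434 against 247 to 310. With the identifier letter as a block, 1 of the 26 remained at an unadjusted p under 0.05, and their median was -0.00.

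The small leucine-rich proteoglycans, which coat collagen fibrils, had 9 of 9 differences above 0 and a median of 0.40. At an unadjusted p under 0.05, 2 were higher and 0 lower, beside 5.00% and 4.49% of all genes. Fmod, which encodes fibromodulin, had 20997, 29121, 38932, 18643 and 27730 in Acan-high tumours, against 4523 to 30918 with a median of 13031 in Acan-low tumours (difference 1.07 ± 0.40, unadjusted p = 0.019, adjusted p = 0.443). Ogn, which encodes osteoglycin, had 4243, 2056, 3186, 1921 and 9405, against 848 to 2672 with a median of 1934 (difference 0.98 ± 0.38, unadjusted p = 0.023). For both genes the groups overlapped. The abundant Dcn, Bgn and Lum had group means close together, with Dcn (decorin) at 0.09 ± 0.44, Bgn (biglycan) at 0.04 ± 0.23 and Lum (lumican) at 0.09 ± 0.94. With the identifier letter as a block 0 were higher and 8 of 9 lay above 0, and among the m tumours alone 0 were higher and 7 of 9 lay above 0. Without osteosarcoma 10 or without osteosarcoma 11, 6 of the 9 were above 0. The median ran from 0.25 without osteosarcoma 7 to 0.88 without osteosarcoma 2.

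Tendon and fibrocartilage genes gave 2 higher and 0 lower of 11, beside 5.00% and 4.49% of all genes. The 2 were Fmod again and Mkx, a tendon transcription factor. Mkx was at 96.7, 93.7, 56.8, 157 and 235 in Acan-high tumours against 28.1 to 103 in Acan-low tumours (0.75 ± 0.29, unadjusted p = 0.023). Scx, the tendon-defining factor, and Tnmd, its target, differed by 0.37 ± 0.32 and 0.61 ± 0.82. Genes of the BMP and TGF-beta pathway, which drives cartilage condensation, gave 2 higher and 1 lower of 22, beside the same shares of all genes. Their median was 0.09. Fst, which encodes the activin inhibitor follistatin, had 376, 851, 1254, 387 and 914, against 89.8 to 457 with a median of 335 (1.28 ± 0.39, unadjusted p = 0.0057, adjusted p = 0.414). The inhibitory Smad7 differed by 0.56 ± 0.19 and the receptor Tgfbr1 by -0.50 ± 0.20.

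Of 17 bone matrix genes tested, 1 was higher (Alpl) and 1 lower, beside 5.00% and 4.49% of all genes. Their differences had a median of -0.09 and a mean of -0.19. Ibsp, bone sialoprotein, was at 32366 to 41630 in Acan-high tumours and 30210 to 49087 in Acan-low tumours (0.02 ± 0.16). Col1a1, the main bone collagen, was at 41948 to 58684 and 30026 to 56463 (0.09 ± 0.18). Sp7, the osteoblast transcription factor osterix, was at 1488 to 4132 in Acan-high tumours and 1158 to 3515 in Acan-low tumours (0.15 ± 0.30). The lowest signal of these 3 genes in any of the 12 tumours was 1158 (Sp7 in osteosarcoma 4). Ibsp was at 37.4 in mc3T3 and at 155 in the tumour labelled rhabdomyosarcoma. The lower gene was Phex, an endopeptidase of osteoblasts and osteocytes, with 1066, 2025, 195, 2985 and 363, against 892 to 8861 with a median of 2892 (-1.83 ± 0.66, unadjusted p = 0.015, adjusted p = 0.443). Osteosarcomas 5 and 11 lay under every Acan-low tumour for Phex.

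**Figure D3:**
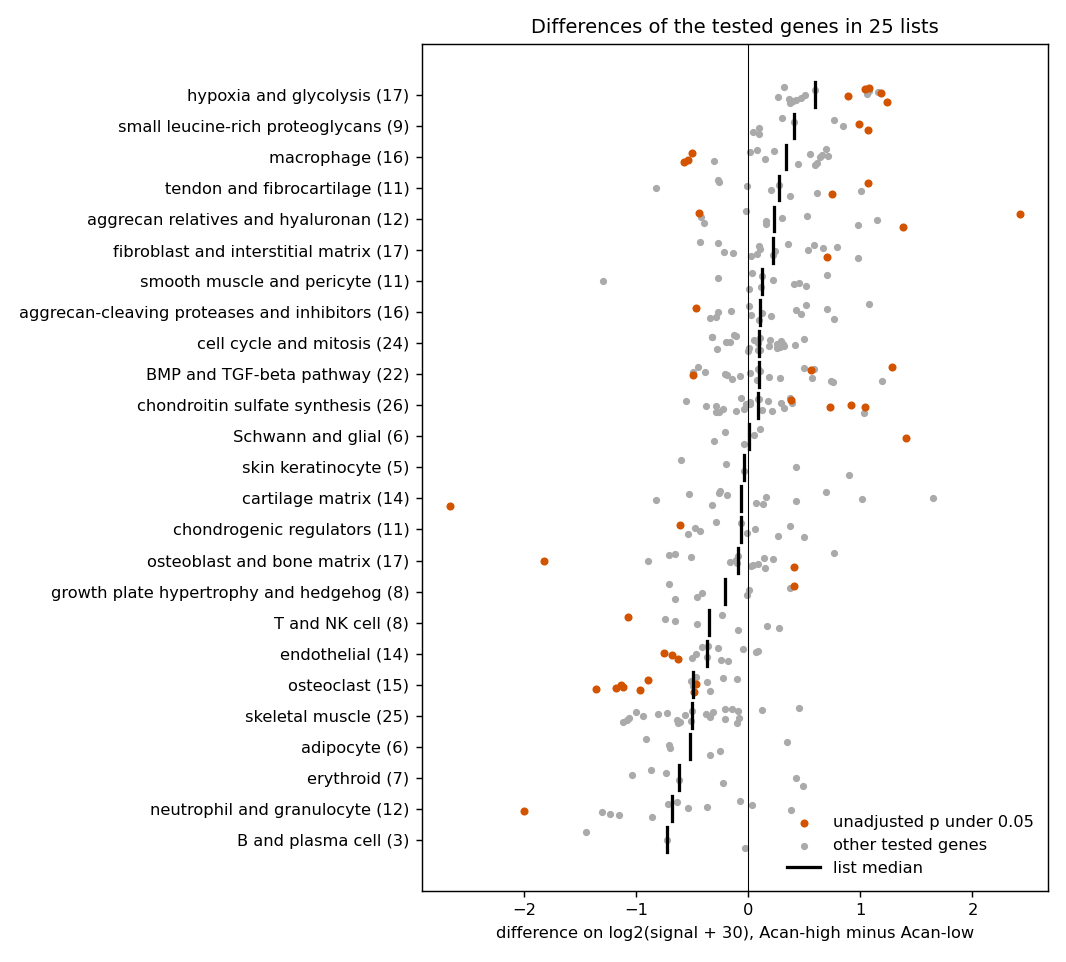
Each point is 1 tested gene's difference, Acan-high minus Acan-low on the log2(signal + 30) scale, in 25 gene lists ordered by their median (black bar), with the number of tested genes in brackets and genes at an unadjusted p under 0.05 in orange. The cartilage matrix list is centred at -0.06 with Col2a1 far to the left, the hypoxia and glycolysis list lies wholly above 0 and the osteoclast list wholly below 0.

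Osteoclast genes, which mark the multinucleated bone-resorbing cells of haematopoietic origin, had 15 of 15 differences below 0, with a median of -0.50, beside -0.00 over all genes. At an unadjusted p under 0.05, 8 of the 15 were lower, beside 4.49% of all genes. Itgb3, the integrin chain by which osteoclasts attach to bone, had 714, 871, 2152, 1017 and 1354 in Acan-high tumours, against 1465 to 3018 with a median of 2106 in Acan-low tumours (-0.90 ± 0.26, unadjusted p = 0.0041, adjusted p = 0.414). Osteosarcoma 5 alone of the Acan-high tumours reached the Acan-low range. Acp5, the tartrate-resistant acid phosphatase, had 26171, 27430, 33589, 34776 and 30504, against 28441 to 53850 with a median of 42115 (-0.48 ± 0.18). Car2, a carbonic anhydrase used in acid secretion, had 983, 911, 1559, 4300 and 4428, against 1809 to 12043 with a median of 5797 (-1.36 ± 0.53). For Acp5 and Car2 no Acan-high tumour reached the Acan-low median.

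The mean osteoclast level on the log2(signal + 30) scale was 10.81 to 11.81 in Acan-high tumours and 11.30 to 12.42 in Acan-low tumours, and the lowest Acan-low tumour was osteosarcoma 3. The Acan-low tumours also had the higher mean beta-actin ratio, with 1.49 ± 0.09 in Acan-high tumours and 1.72 ± 0.27 in Acan-low tumours (SD, n = 5 and 7). With that ratio as a covariate, 15 of 15 differences stayed below 0 with a median of -0.35, and 1 had an unadjusted p under 0.05. With the identifier letter as a block 2 did, and with osteosarcoma 1 moved to the low side 0 did. Without osteosarcoma 1 or without osteosarcoma 2 the number was 3, and without osteosarcomas 6 and 9 it was 9.

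Hypoxia and glycolysis genes had 17 of 17 differences above 0, with a median of 0.59, and 5 were higher at an unadjusted p under 0.05, beside 5.00% of all genes. Slc2a1, the glucose transporter GLUT1, had 2388, 1262, 8897, 795 and 6181 in Acan-high tumours, against 647 to 3502 with a median of 1026 in Acan-low tumours (1.24 ± 0.57, unadjusted p = 0.049, adjusted p = 0.524). Car9, a carbonic anhydrase widely used as a hypoxia marker, had 238, 82.1, 693, 136 and 1166, against 57.0 to 243 with a median of 136 (1.19 ± 0.52). Osteosarcomas 5 and 11 carried the highest signals of both genes, and the rest of the Acan-high tumours lay within the Acan-low range. Hk2, a hexokinase, was more even, at 1542, 1611, 3517, 1429 and 2121, against 771 to 1999 with a median of 786 (0.89 ± 0.32, unadjusted p = 0.015).

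The mean level of this list was 12.05 in osteosarcoma 5 and 12.28 in osteosarcoma 11, 10.39 to 10.95 in the other Acan-high tumours and 10.16 to 11.33 in Acan-low tumours. Without osteosarcoma 5, 0 of the 17 had an unadjusted p under 0.05 and the median was 0.45, and without osteosarcoma 11 there was 1 and a median of 0.34. Without osteosarcoma 2, with the lowest level of the Acan-high tumours, there were 10, and without osteosarcomas 6 and 9 there were 8. With the beta-actin ratio as a covariate, 2 had an unadjusted p under 0.05 and 15 of 17 stayed above 0.

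**Figure D4:**
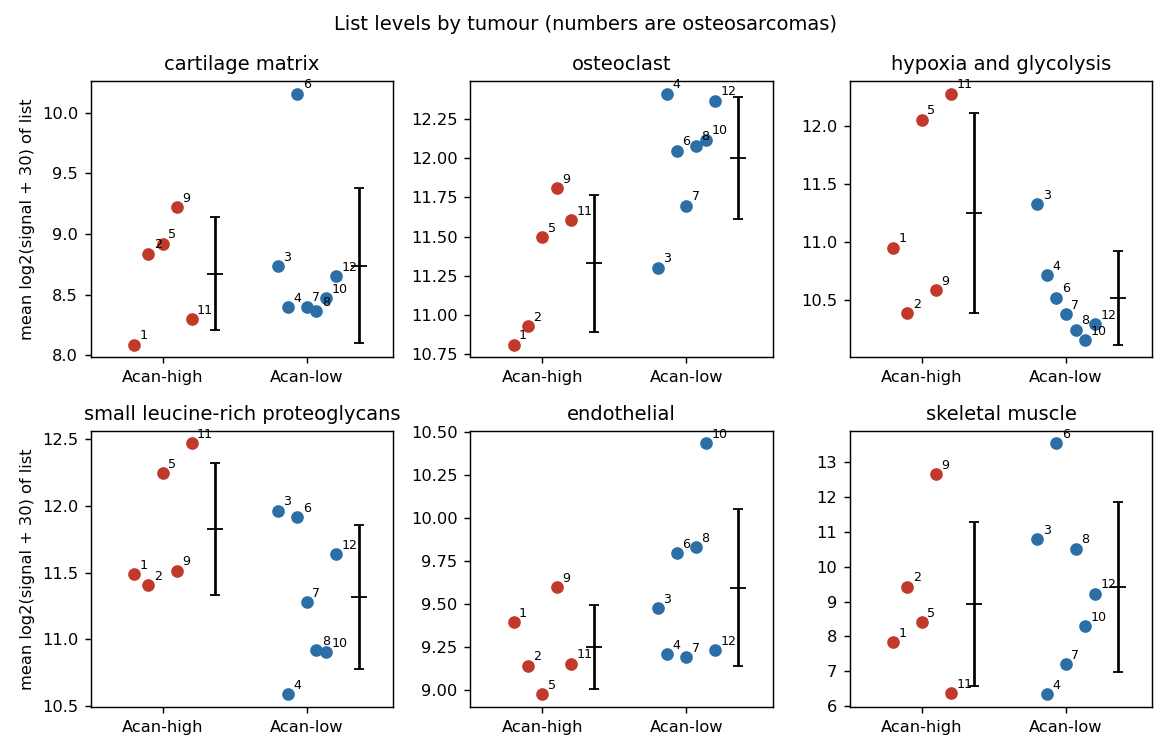
Each point is 1 tumour's mean log2(signal + 30) over the tested genes of a list, labelled with its osteosarcoma number, Acan-high (red) left of Acan-low (blue), with group means and bars of 1 SD (n = 5 and 7). The groups overlap in all 6 panels; osteosarcoma 6 stands above in cartilage matrix, osteosarcomas 5 and 11 in hypoxia and glycolysis, and osteosarcomas 6 and 9 in skeletal muscle.

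Lists of other cell types that a tumour piece may hold gave 0 to 3 genes at an unadjusted p under 0.05. Of all genes 5.00% were higher and 4.49% lower. The lower shares of the macrophage and endothelial lists were larger, on 3 genes each. So were the lower shares of the neutrophil and the T and NK cell lists, on 1 gene each. The higher shares of the interstitial matrix and the Schwann and glial lists were also larger, on 1 gene each. Of 16 macrophage genes, 3 were lower (Cd68, Tyrobp and Laptm5, between -0.57 and -0.50) although 12 lay above 0 and the median was 0.34. With the identifier letter as a block the macrophage list gave 2 higher and 0 lower (median 0.72), without osteosarcoma 11 it gave 4 higher and 1 lower (0.54), and without osteosarcoma 1 it gave 0 of either. Without osteosarcoma 2 its median was 0.15. Of 14 endothelial genes, 12 lay below 0 with a median of -0.37, and 3 were lower: Mmrn2 at -0.76 ± 0.25, Emcn at -0.68 ± 0.23 and the VEGF receptor Kdr at -0.63 ± 0.26. With the identifier letter as a block 1 of these 14 was lower, and in the slope on the Acan level 0 were. Mmrn2 was at 598, 539, 456, 879 and 644 in Acan-high tumours, against 620 to 1550 with a median of 1131 in Acan-low tumours. No Acan-high tumour reached the Acan-low median. Interstitial matrix gave 1 higher of 17, the fibrillar collagen Col5a1 (0.70 ± 0.24), and the Schwann and glial list 1 higher of 6, the myelin protein Pmp22, which many mesenchymal cells also make (1.41 ± 0.36, unadjusted p = 0.0017, adjusted p = 0.414). In that glial list Sox10, which defines the lineage, reached at most 162 in any osteosarcoma.

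Skeletal muscle genes gave 0 at an unadjusted p under 0.05 of 25. Their summed signal was 2339 to 287329 in Acan-high tumours and 1949 to 467323 in Acan-low tumours, with the tops in osteosarcomas 9 and 6. Neutrophil genes gave 1 lower of 12, Ngp, at 66.3 to 398 in Acan-high tumours against 115 to 10656 in Acan-low tumours, where osteosarcoma 6 had the highest signal. The T and NK cell list gave 1 lower of 8, Nkg7 (-1.07 ± 0.46). The adipocyte, smooth muscle and pericyte, erythroid, B and plasma cell, skin keratinocyte and cell cycle lists gave 0 in either direction. The part of these cell types in the differences of other genes was not tested.

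Beyond the lists, the 10 genes of lowest p that were higher in Acan-high tumours were Apol7a, Glipr2, Eno2, Hpse, Col8a2, 3000002C10Rik, Il18rap, Bcat1, Pkm and Osr1. Their differences ran from 0.80 to 2.02, and adjusted p from 0.343 to 0.410, so none was called. Il18rap reached the filter's signal of 200 in Acan-high tumours only, so the filter favoured its place here. Hpse, which encodes heparanase, the enzyme that cuts heparan sulfate, had 1295, 1225, 2179, 746 and 1801 in Acan-high tumours, against 160 to 993 with a median of 353 in Acan-low tumours (1.77 ± 0.35). Osteosarcoma 9 alone fell within the Acan-low range. Col8a2, which encodes a short-chain network collagen, had 1221, 690, 637, 528 and 957, against 57.4 to 416 with a median of 194 (1.83 ± 0.37). Its groups did not overlap.

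Bcat1, the cytosolic branched-chain amino acid transaminase, had the widest of these differences, 2.02 ± 0.46, with 1887, 3394, 3708, 2043 and 2183 in Acan-high tumours against 165 to 1749 with a median of 493 in Acan-low tumours. The glycolytic enzymes Pkm and Eno2 also did not overlap between the groups. Pkm had 12157, 10440, 16309, 12304 and 16071, against 6244 to 9629 with a median of 7292 (0.80 ± 0.18). Eno2 was dim, at 112 to 170, against 35.4 to 85.2 (0.96 ± 0.19). It passed the filter only through mc3T3 (270) and the tumour labelled rhabdomyosarcoma (278). Apol7a, the gene of lowest p, was dim in every osteosarcoma. It had 113, 21.6, 75.6, 58.3 and 97.1 in Acan-high tumours and 4.10 to 13 in Acan-low tumours (1.35 ± 0.23). Apol7a passed the filter only through the tumour labelled rhabdomyosarcoma (279). Without osteosarcoma 2 its difference was 1.57 ± 0.17 with an adjusted p of 0.00864, the only call in any of the fits. Osr1, a transcription factor of connective tissue and joint progenitors, had 189, 183, 92.3, 152 and 573, against 10.9 to 100 with a median of 46.5 (1.58 ± 0.36).

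**Figure D5:**
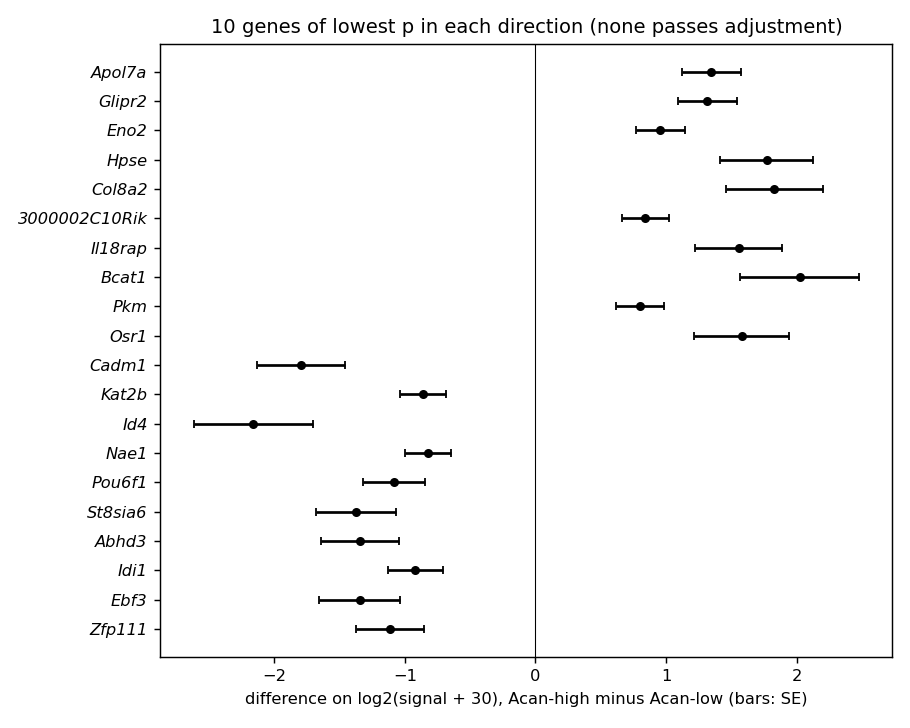
Points are the differences of the 10 genes of lowest p in each direction, Acan-high minus Acan-low on the log2(signal + 30) scale, with bars of 1 standard error (n = 5 and 7). The higher genes span 0.80 (Pkm) to 2.02 (Bcat1) and the lower genes -2.16 (Id4) to -0.82 (Nae1); all had adjusted p values of 0.343 to 0.410.

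The 10 lower genes were Cadm1, Kat2b, Id4, Nae1, Pou6f1, St8sia6, Abhd3, Idi1, Ebf3 and Zfp111, with adjusted p of 0.410 each. Abhd3 and Ebf3 reached the filter's signal of 200 in Acan-low tumours only, so the filter favoured their place here. Cadm1, an adhesion molecule of osteoblasts among other cells, had 2725, 2075, 2189, 5367 and 1053 in Acan-high tumours, against 4938 to 12273 with a median of 8979 in Acan-low tumours (-1.79 ± 0.34). Only osteosarcoma 9 reached the Acan-low range. Id4, an inhibitor of basic helix-loop-helix factors, had 51.4, 292, 62.9, 140 and 63.5, against 211 to 1614 with a median of 484 (-2.16 ± 0.46). Groups did not overlap for the acetyltransferase Kat2b, at 1468 to 2575 against 2691 to 4385 (-0.86 ± 0.18), nor for Nae1, a subunit of the NEDD8-activating enzyme, at 1525 to 2180 against 2528 to 4372 (-0.82 ± 0.18). The same held for the POU factor Pou6f1 and for Idi1, an isomerase of the cholesterol pathway, with differences of -1.09 ± 0.24 and -0.92 ± 0.21.

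The genes whose level followed that of Acan most closely across the 12 osteosarcomas, by Pearson's r of log2(signal + 30), were Plod1 (0.88), Bcat1 (0.87), Pkm (0.86), Egfr (0.84), Slc35d1 (0.83), 3000002C10Rik (0.83), Rnf145 (0.83), Map1a (0.82), P4ha2 (0.82) and G6pc3 (0.82). They were picked as the 10 highest of 11814 values over 12 arrays that share scaling and platform, so the values are a description. Plod1, a lysyl hydroxylase of collagen, had 2594, 2579, 3089, 2297 and 2732 in Acan-high tumours, against 1348 to 2083 with a median of 1825 in Acan-low tumours. P4ha2, a prolyl hydroxylase of collagen, had 6883, 5940, 12302, 8756 and 14468, against 1483 to 6312 with a median of 4139. Plod1 did not overlap between the groups, and P4ha2 did so through osteosarcoma 2. No cartilage matrix gene or chondrogenic regulator was among the 10. The highest r of the cartilage matrix list was 0.55 for Col27a1, rank 480 of 11814, followed by 0.46 for Matn3 and 0.40 for Col11a1. Among the regulators the highest was 0.58 for Runx3, a factor of hypertrophic cartilage, rank 397, and Sox9 had 0.20. Col2a1 had -0.44, rank 10725, and Foxc1 -0.67, rank 11701.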

How the data were processed

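The deposited values are array intensity (signal) on a linear scale for 45101 probe sets on 14 arrays, in 1 table; they were made with GCOS according to the submitters' processing notes, which as used here give no version. The values show that each array had been scaled to a mean of 500.0 after trimming 2% at each end. How background was removed is not given in the sources used here. Acan-high and Acan-low were assigned by a signal threshold of 160. The members, the 25 gene lists (411 entries, 319 genes tested) and the rule for named genes were chosen with earlier results of these data known. That rule took both sides' 10 genes of lowest p, the 10 most like Acan, and the cartilage matrix and chondrogenic lists; list members at an unadjusted p under 0.05 and other members were named as examples of their list.

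Each array was rescaled to that mean, and log2(signal + 30) was used, which shrinks the changes of dim genes. The filter kept probe sets that reached 200 on 1 or more arrays. Symbols came from the platform annotation (34945 probe sets with 1 symbol, 932 with several; 34741 updated through Entrez identifiers with a GRCm38.p6 gene table), and a gene was its brightest probe set. Acan was left out of the test. The comparison used limma 3.58.1 under R 4.3.3, as a two-sided moderated test adjusted by Benjamini-Hochberg, with 10 residual and 3.54 prior degrees of freedom. The number of arrays limits the precision. On simulated data of 11814 genes, 5 against 7, 50 genes were raised in the Acan-high group by each log2 change of 1, 2, 3 and 4. Noise was normal, with each gene's SD over the 12 tumours. The fit called 40% of genes at a change of 1, 82% at 2, 94% at 3 and 100% at 4. Many genes were changed at once, which eases the adjustment, so these shares are not the chance of calling a lone changed gene. There were 12 false calls. The simulation holds no correlation between genes. In all, 26 alternatives were run.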

Additional observations from a re-analysis of the deposited data

Results flagged for a closer look

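Of 106 gene and group combinations checked, 6 held 1 tumour far from the rest of its group (5.66%), and chance sets off about 1 in 20 groups. In 3 of them the tumour was osteosarcoma 6 among the Acan-low tumours, with the highest signal. Chad, a cartilage adhesion protein, was at 503 there, against 7 to 68.3 in the other Acan-low tumours. Prg4, the lubricin of joint surfaces, was at 2287, against 101 to 336. Cytl1, a cytokine-like protein of cartilage, was at 654, against 11.8 to 42.7. Chad and Cytl1 reached the filter's signal of 200 in osteosarcoma 6 alone, so the rate expected by chance does not apply to their flags. The remaining flags concerned Fgfr3, at 506 in osteosarcoma 1 against 1391 to 1838 in the other Acan-high tumours, Runx1, at 819 in osteosarcoma 9 against 311 to 407 in the other Acan-high tumours, and Egfr, at 311 in osteosarcoma 7 against 404 to 488 in the other Acan-low tumours.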

How the results depend on the processing

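Over the 26 alternatives, the count of genes higher in Acan-high tumours at an adjusted p under 0.05 was 0 in all but 1. Leaving out each of the 12 tumours in turn gave 0 to 1, the 1 being Apol7a without osteosarcoma 2. The count of lower genes was 0 in all 26. The cartilage matrix median, -0.06, ran from -0.19 without osteosarcoma 5 to 0.38 with 6 tumours on each side, within the SD of 0.74 between tumours, and its sign was not stable. The sign of Col2a1 was negative in all 26, from -3.41 to -1.13, with an unadjusted p under 0.05 in 22. Foxc1 was negative in all 26, from -0.82 to -0.48. Comp, Hapln1, Cilp, Col9a1, Col11a1, Col11a2, Chad, Cytl1, Sox6, Fgfr3, Trps1, Runx1 and Arid5b, none of them called, changed sign under at least 1. The depth of a signal over background is unknown without detection calls, which limits Acan itself and most of the dim cartilage genes. No paired analysis was run, because the groups were separate sets of tumours and the labels give no pairing between them.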

Other observations

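Of the tested cartilage matrix genes and chondrogenic regulators, 5 were brighter in mc3T3 than in any osteosarcoma on the probe set used: Matn4, Col27a1, Sox9, Sox5 and Arid5b. In mc3T3, where Acan was at 4.10, Matn4 was at 3604, Col27a1 at 3196 and Sox9 at 3183, against no more than 1613, 1062 and 777 in any osteosarcoma. In the tumour labelled rhabdomyosarcoma, Col2a1 was at 15.8 and Col11a2 at 105. Osteoclast genes averaged 8.29 there and 7.64 in mc3T3 on the log2(signal + 30) scale, under all 12 osteosarcomas. These are single arrays without replicates.

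The mean level of the cell cycle genes was 10.56 ± 0.06 in Acan-high tumours and 10.48 ± 0.59 in Acan-low tumours (SD, n = 5 and 7). The Acan-high tumours lay between 10.47 and 10.62. Of the Acan-low tumours, osteosarcoma 12 lay at 9.22 and the others between 10.41 and 10.95, so the wider SD of the Acan-low group rests largely on that tumour. Its array also had the highest beta-actin ratio (2.13) and the lowest median signal (67.1) of the 12 tumours. With the beta-actin ratio as a covariate, 5 of 24 cell cycle genes had a difference above 0, against 16 without it. Whether RNA quality bears on the level of osteosarcoma 12 was not tested. The difference in spread was not tested.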
